A study of Homo sapiens with 12 samples.

Results

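The RAB genes encode small GTPases of the RAS superfamily that mark the membranes of the secretory and endocytic routes. Each RAB protein alternates between a GDP-bound form, which is kept in the cytosol, and a GTP-bound form, which sits on a membrane through prenyl groups and recruits effectors such as tethers and motors. Exchange factors load GTP and GTPase activating proteins return the protein to the inactive form. Erythroid cells depend on this traffic to take up iron. Transferrin and its receptor are internalized through early endosomes and returned to the surface through recycling endosomes.

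The RAB rows are the rows of the deposited tables in which 1 of the gene names has the form RAB, a number and at most 1 letter from A to D. They numbered 63 of 61782 rows. The family was selected on measured values of these data, since the row of RAB11A stood out between the AGO2 precipitates, and the values of that row are therefore given as a description. A RAB row that holds 1 name counts for 1 gene (54 rows), while 9 rows were joined by the authors' software with the names of other genes, and their values cannot be assigned to RAB genes alone. One row, RAB1C, is a processed pseudogene in GENCODE 29 in spite of its name.

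RNA in complex with AGO2 (Argonaute 2), which loads microRNAs and is guided by them to target transcripts, had been recovered by immunoprecipitation from K562 cells, a human erythroleukemia line, which per the study's methods carried an inducible C/EBPα. The cells were stably transduced with lentiviral pLV-miR-143 or its control pLV-control. The study's methods name puromycin selection or fluorescence-based sorting after transduction, without saying which was used for these cells. RNA was precipitated with an antibody against AGO2 or with unspecific IgG as the mock. The labels give 12 samples in 4 groups of 3 (control_IgG, control_AGO, miR143_IgG and miR143_AGO), and the series describes 3 independent experiments. The values are the authors' average FPKM per group (a fragment count divided by transcript length and by all mapped fragments), 1 value per row and group, so that no difference below has a replicate check, a test or a p-value.

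The labels and the cell type were checked first. The MIR143 row was at 0 in control_IgG and control_AGO, and reached 44781 FPKM with IgG and 118393 FPKM with AGO2 in miR-143 cells. The AGO2 row, which is joined with another name, was at 1.83 (control_IgG), 36.6 (control_AGO), 4.57 (miR143_IgG) and 36.2 FPKM (miR143_AGO). All 10 rows found for K562 and erythroid markers were at 1 FPKM or more in control_AGO, miR143_IgG and miR143_AGO, and 9 of 10 were in control_IgG. Of the markers of other cells, both monocyte rows were at 0 in every group and the summed B cell rows reached at most 0.714 FPKM. EPCAM, an epithelial gene, was listed at 0 in control_IgG and at 1.24, 8.28 and 1.5 FPKM in control_AGO, miR143_IgG and miR143_AGO, and CD3D, a T cell gene, was at 4.95 FPKM in miR143_IgG and at 0 elsewhere. Their part in the RAB values was not tested. Over all rows, 8393 were above 0 in control_IgG, 11453 in miR143_IgG, 12161 in control_AGO and 12937 in miR143_AGO. Numbers of fragments were unknown, but the 10th lowest product of FPKM and transcript length above 0, which falls as depth rises, in control_IgG was 12.9 times that of miR143_AGO, so that a 0 in control_IgG weighs less than one elsewhere.

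Sites for miR-143-3p were read from the 3′ UTRs of the RAB genes to set them beside the recovery of each transcript. The miRNA is printed as in RefSeq (GRCh38.p14, chr5:149428978-149428998, plus strand) with its seed, bases 2 to 8, in capitals. The target windows of 30 bases are from GENCODE 29 (GRCh38), printed in the sense of the transcript with the letters of the site in capitals. They are shown for RAB40B and RAB43, which have a site and were at least 2-fold lower in miR143_AGO than in control_AGO, and for RAB7A and RAB2B, which have a site and were higher in miR143_AGO.
hsa-miR-143-3p: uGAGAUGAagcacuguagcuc
RAB40B, chr17:82657783-82657789, minus strand: gctggtggatgCATCTCAgatcccggttcc
RAB43, chr3:129089583-129089589, minus strand: ggtggagccagCATCTCAcctgccaggctt
RAB43, chr3:129088021-129088027, minus strand: ggagaacagtgTCATCTCttcctttgttga
RAB7A, chr3:128814277-128814283, plus strand: caaaaagctttTCATCTCtccagggggaaa
RAB2B, chr14:21460796-21460802, minus strand: tggagaaatgcCATCTCAactgaaaataca

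A site was counted where the strand of the transcript read TCATCTCA (8mer), TCATCTC without the A (7mer-m8) or CATCTCA without the first T (7mer-A1), so that no site counted under more than 1 type. The sites of RAB11A, RAB40B and RAB2B were of the 7mer-A1 type, that of RAB7A was a 7mer-m8, and RAB43 held 1 of each. A site was found in 20 of 63 annotated RAB genes with a 3′ UTR (31.7%) and in 4249 of 19151 coding genes (22.2%). These RAB genes are not quite the genes of the RAB rows. RAB6D has a 3′ UTR but no row, and RAB1C has a row but no annotated 3′ UTR. RAB 3′ UTRs were longer, with a median of 2101 bases against 1104, and held 1.51 sites per 10 kb against 1.75 over all coding genes. A match of letters describes the sequence and does not show binding.

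The level of the RAB rows was described before any ratio. Of the 63 rows, 14 were listed at 0 in every group, 7 (RAB15, RAB17, RAB22A, RAB27B, RAB37, RAB40A and RAB42) were above 0 but below 1 FPKM in every group, and 42 reached 1 FPKM in at least 1 group, of which 16 did so in all 4. The rows at 0 in every group were RAB3B, RAB3C, RAB6C, RAB7B, RAB9B, RAB13, RAB19, RAB25, RAB33A, RAB34, RAB36, RAB39B, RAB41 and RAB44. Among them are RAB25, known from epithelial cells, and RAB3B and RAB3C, known from secretory cells and neurons. RAB rows above 0 numbered 34 (control_IgG), 42 (control_AGO), 40 (miR143_IgG) and 47 (miR143_AGO). A RAB row was listed at 0 while another group had 1 FPKM or more in 10 cases for control_IgG, 4 for miR143_IgG, 2 for control_AGO and 1 for miR143_AGO.

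Summed over the family, the RAB rows had 442 (control_IgG), 1141 (control_AGO), 715 (miR143_IgG) and 607 FPKM (miR143_AGO). As a share of the summed FPKM of all rows they made up 0.0156%, 0.31%, 0.0275% and 0.147%, so that on this scale both AGO precipitates were above their mock. The summed FPKM of all rows includes very abundant small RNAs, however. The RNU4-2 row alone was at 675467 (control_IgG), 47322 (control_AGO), 706258 (miR143_IgG) and 31202 FPKM (miR143_AGO). These shares therefore do not measure the recovery of RAB transcripts by themselves, and the part of small RNAs in them was not tested. Single rows weighed heavily in the sums. The RAB11A row made up 50% of the RAB sum in control_AGO and 12.8% in control_IgG, but 1.42% in miR143_AGO and 2.58% in miR143_IgG. Without it the sums were 386 (control_IgG), 571 (control_AGO), 696 (miR143_IgG) and 598 FPKM (miR143_AGO). The highest RAB row was RAB11A in both control groups, RAB28 in miR143_IgG and RAB5C in miR143_AGO. Since each value comes from a bulk precipitate, fewer cells with a transcript, less of it per cell and a lower recovery cannot be told apart.

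**Figure D1:**
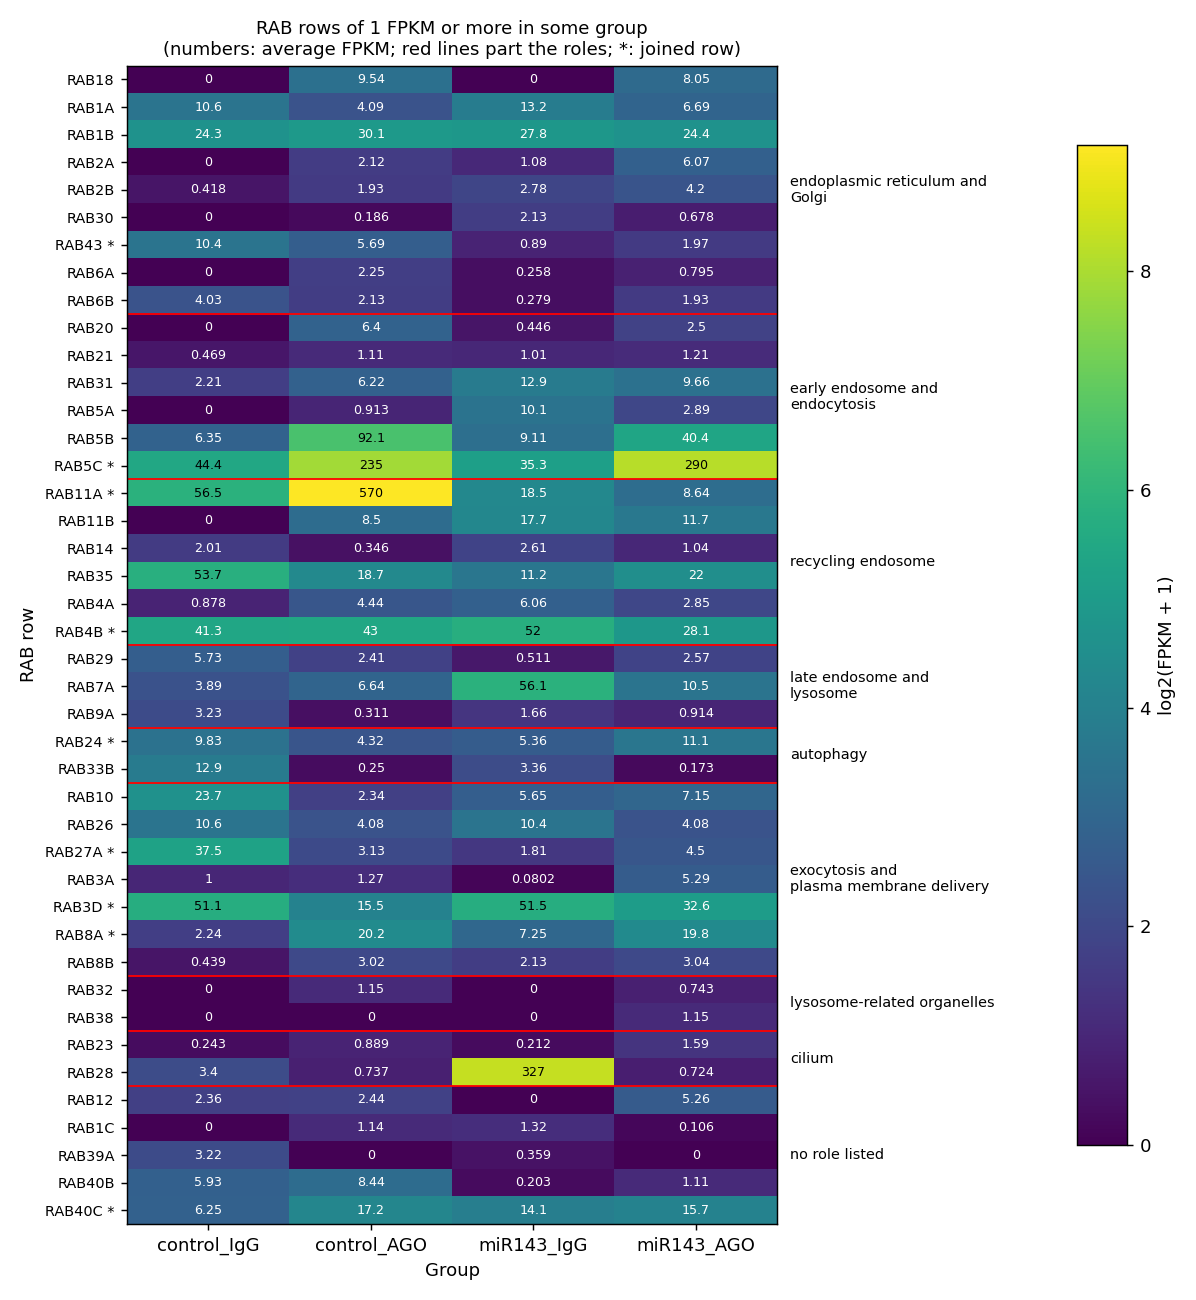
Average FPKM of the 42 RAB rows with 1 FPKM or more in at least 1 group, printed in each cell and coloured by log2(FPKM + 1), with the 4 groups as columns and rows ordered by the role named at the right (* marks a row joined with other gene names). The brightest cells are RAB11A in control_AGO (570 FPKM), RAB28 in miR143_IgG (327 FPKM) and RAB5C in both AGO groups (235 and 290 FPKM).

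RAB11A directs vesicles from the recycling endosome to the cell surface. Its gene lies at chr15:65726054-65891991 on the plus strand. The row carries a second name, AC084854.1, that was not found in the annotation used here. It had 56.5 (control_IgG), 570 (control_AGO), 18.5 (miR143_IgG) and 8.64 FPKM (miR143_AGO). The control AGO precipitate thus stood far above the other 3 groups, and the AGO precipitate of miR-143 cells was the lowest of them. In the order of all rows the RAB11A row had rank 43 in control_AGO and rank 3411 in miR143_AGO, with rank 872 in control_IgG and rank 2463 in miR143_IgG.

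Ratios between groups are given as log2 of (FPKM + 1) over (FPKM + 1) for rows that reached 1 FPKM in either group, a scale that understates changes of low rows. For the RAB11A row this log2 ratio was -5.89 for miR143_AGO over control_AGO, a plain ratio of 66.1 in favour of the control, and 0.112% of all rows compared were as low or lower. The mock precipitates differed in the same direction by less, with a log2 ratio of -1.56 for miR143_IgG over control_IgG. The log2 ratio of AGO over IgG was 3.31 for control and -1.01 for miR-143 cells, so that the row was above its mock in control cells and below it in miR-143 cells. The difference of these values, the IgG-corrected log2 ratio, was -4.33 before rounding.

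The joined name limits what the RAB11A row shows. Inside an intron of RAB11A, GENCODE 29 places a small nuclear RNA of the U6 family (Rfam family RF00026) at chr15:65843484-65843558 on the same strand. It has 75 bases and 77.3% identity to RNU6-1. No row carries that name, and whether AC084854.1 stands for it could not be settled. For so short a gene a few fragments give a high FPKM. The part of this RNA in the 570 FPKM of the joined row was not tested. DENND4A, which overlaps RAB11A on the other strand, was at 0, 0.41, 1.41 and 1.40 FPKM in control_IgG, control_AGO, miR143_IgG and miR143_AGO, far below the joined row in each group. Of the 50-base words of the longest coding RAB11A transcript, 0.266% occurred in annotated transcripts of genes elsewhere. RAB11A introns were not checked in this way.

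RAB11B, the close paralogue of RAB11A in the recycling endosome, has a row of its own (chr19:8389981-8404434, plus strand). It was listed at 0 in control_IgG and was at 8.50 (control_AGO), 17.7 (miR143_IgG) and 11.7 FPKM (miR143_AGO). Between the AGO precipitates its log2 ratio was 0.41, higher in miR143_AGO. Its level in control_AGO was far below that of RAB11A, while in miR143_IgG and miR143_AGO the paralogues differed by less than 2-fold. RAB11B-AS1, on the other strand, was at 6.62 FPKM in control_IgG and at 0.552, 0.291 and 0.134 FPKM in control_AGO, miR143_IgG and miR143_AGO. The longest coding RAB11B transcript shared no 50-base word with annotated transcripts of genes elsewhere. The RAB11B 3′ UTR of 876 bases held no miR-143-3p site.

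**Figure D2:**
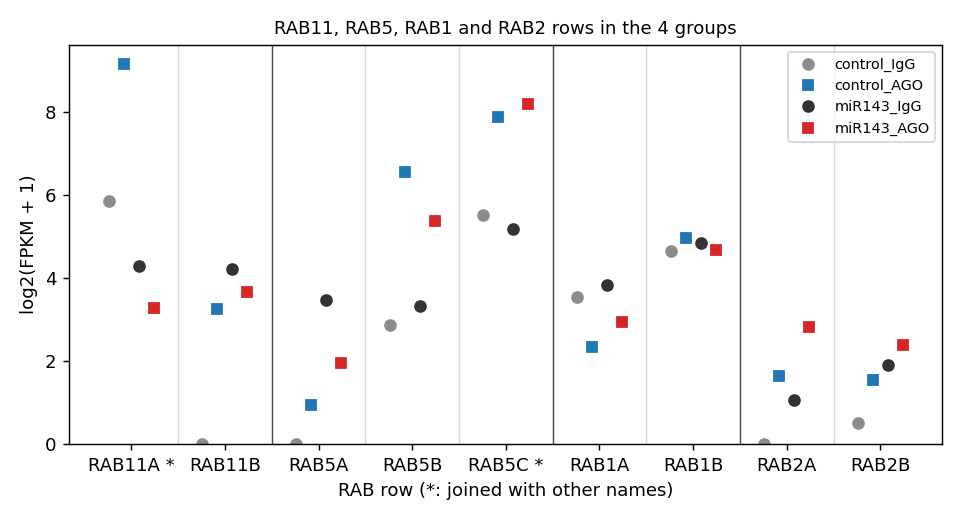
Levels of the RAB11, RAB5, RAB1 and RAB2 paralogues as log2(FPKM + 1) on the vertical axis, 1 point per group (circles IgG, squares AGO, 1 authors' average each, without error bars). RAB11A has its blue point (control_AGO, 570 FPKM) far above its red point (miR143_AGO, 8.64 FPKM), whereas RAB11B, RAB1A and RAB1B have these points close together, and RAB5B and RAB5C have both above their IgG points.

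Whether the difference of the RAB11A row was shared by the family was the central question. Of the 37 RAB rows compared between the AGO precipitates, 25 lay within 2-fold. The median log2 ratio was 0.07, against 0.17 over all 9798 rows compared, and it was -0.06 when the groups were scaled to the same median. Without RAB11A the median was 0.15, and over the 28 rows of 1 name it was 0.15 as well. The standard deviation across RAB rows was 1.28 with RAB11A and 0.83 without it, against 1.12 over all rows, and 21 of 37 ratios were above 0 (56.8% against 57.5% of all rows). Scaling to the same median moved the median of all rows by -0.19, and scaling to the same upper quartile moved it by 0.11.

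At least 2-fold higher in miR143_AGO were 7 of 37 RAB rows, and 5 were at least 2-fold lower, where 17.7% of all rows were higher and 14.1% lower. These shares are near those of all rows. With the groups scaled to the same median the counts were 5 higher and 7 lower. At least 10-fold lower was 1 RAB row, RAB11A, against 0.745% of all rows, and as the family was selected on this row nothing is read from that count. No RAB row was 10-fold higher.

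**Figure D3:**
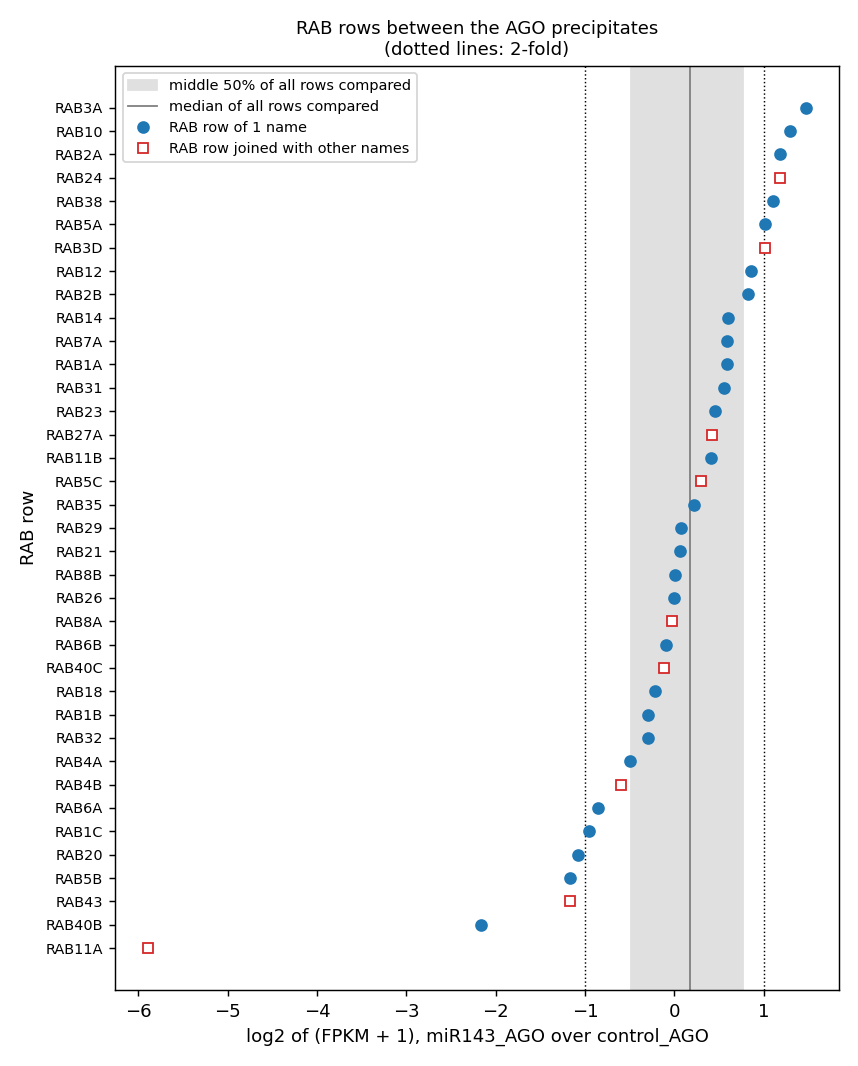
Log2 ratio of (FPKM + 1) of miR143_AGO over control_AGO on the horizontal axis for the 37 RAB rows compared, sorted by value, with joined rows as open squares, the middle 50% of all rows in grey and dotted lines at 2-fold. RAB11A at -5.89 lies apart from the other 36 rows, which run from -2.16 (RAB40B) to 1.47 (RAB3A) on both sides of 0.

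Besides RAB11A, the rows at least 2-fold lower in miR143_AGO were RAB40B, the RAB43 row, RAB5B and RAB20. RAB40B, a substrate adaptor of a Cullin-RING ubiquitin ligase, was at 8.44 FPKM (control_AGO) and 1.11 FPKM (miR143_AGO), a log2 ratio of -2.16. Its mock values differed in the same direction, with 5.93 FPKM (control_IgG) and 0.203 FPKM (miR143_IgG), a log2 ratio of -2.53. RAB40B thus differed more between the mock precipitates than between the AGO precipitates. The same held for the row of RAB43, a Golgi RAB, which is joined with ISY1 and their read-through gene. It was at 10.4 (control_IgG), 5.69 (control_AGO), 0.89 (miR143_IgG) and 1.97 FPKM (miR143_AGO), with log2 ratios of -1.17 for the AGO and -2.59 for the IgG pair. Of its 50-base words, 41.4% occurred in 2 other genes, so that its reads can be split.

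RAB5B, 1 of the 3 RAB5 paralogues of the early endosome, was at 92.1 FPKM (control_AGO) and 40.4 FPKM (miR143_AGO), a log2 ratio of -1.17. Its mock values were much lower and near each other, with 6.35 FPKM (control_IgG) and 9.11 FPKM (miR143_IgG). RAB5B was therefore lower with miR-143 but stayed above its mock in both cell populations, unlike RAB11A. RAB20, a RAB of endosomes and phagosomes, was at 6.40 FPKM (control_AGO) and 2.50 FPKM (miR143_AGO), a log2 ratio of -1.08, with 0 FPKM (control_IgG) and 0.446 FPKM (miR143_IgG). Neither RAB5B nor RAB20 held a miR-143-3p site in its longest annotated 3′ UTR.

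Higher by 2-fold or more in miR143_AGO were 7 rows, RAB3A, RAB10, RAB2A, RAB24, RAB38, RAB5A and RAB3D, of which RAB24 and RAB3D are joined rows. RAB3A, which acts in regulated exocytosis, was at 1.27 FPKM (control_AGO) and 5.29 FPKM (miR143_AGO), a log2 ratio of 1.47. RAB10, which carries vesicles to the plasma membrane, was at 2.34 and 7.15 FPKM, a log2 ratio of 1.29. RAB2A, which works between the endoplasmic reticulum and the Golgi, was at 2.12 and 6.07 FPKM, a log2 ratio of 1.18. None of these 3 rows was above 7.15 FPKM in an AGO precipitate.

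The RAB24 row, joined with MXD3, was at 4.32 FPKM (control_AGO) and 11.1 FPKM (miR143_AGO), a log2 ratio of 1.18, where RAB24 is a RAB linked to autophagy. RAB38, of lysosome-related organelles, was listed at 0 in 3 groups and at 1.15 FPKM in miR143_AGO, so that no fold is given. RAB5A was at 0.913 and 2.89 FPKM and the RAB3D row, joined with TMEM205 and another name, at 15.5 and 32.6 FPKM, both with a log2 ratio of 1.02, just past 2-fold. None of the 7 was above 32.6 FPKM in either AGO group, and 5 of them were below 3 FPKM in control_AGO.

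The other 25 rows compared lay within 2-fold between the AGO precipitates, and RAB9A, RAB28, RAB30, RAB33B and RAB39A were not compared because both values were below 1 FPKM. RAB1B, which acts early in the secretory pathway, was at 24.3, 30.1, 27.8 and 24.4 FPKM in control_IgG, control_AGO, miR143_IgG and miR143_AGO, within 2-fold in every pair. RAB26, a RAB of secretory granules, was at 4.08 FPKM in both AGO precipitates and at 10.6 and 10.4 FPKM in control_IgG and miR143_IgG. RAB18, of the endoplasmic reticulum and lipid droplets, was at 9.54 FPKM (control_AGO) and 8.05 FPKM (miR143_AGO) and was listed at 0 in both mock precipitates. The RAB8A row, joined with HSH2D, was at 20.2 and 19.8 FPKM in the AGO precipitates, and the RAB40C row, joined with WFIKKN1, at 17.2 and 15.7 FPKM. The row of RAB4B, a RAB of fast recycling, joins 7 names and was at 41.3, 43.0, 52.0 and 28.1 FPKM in control_IgG, control_AGO, miR143_IgG and miR143_AGO, with no group far from the others. The paralogue RAB4A was at 0.878, 4.44, 6.06 and 2.85 FPKM in that order of groups, a log2 ratio between the AGO precipitates of -0.50.

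Among the rows at a few FPKM, RAB31, which acts between the Golgi and endosomes, was at 2.21 (control_IgG), 6.22 (control_AGO), 12.9 (miR143_IgG) and 9.66 FPKM (miR143_AGO). RAB1A, the partner of RAB1B, was at 10.6, 4.09, 13.2 and 6.69 FPKM in that order of groups, and both mock precipitates were above both AGO precipitates. RAB29, of the Golgi and lysosome, was at 5.73, 2.41, 0.511 and 2.57 FPKM, and RAB8B, which like RAB8A serves exocytosis, at 0.439, 3.02, 2.13 and 3.04 FPKM. Both had nearly equal values in the AGO precipitates. RAB6A, a Golgi RAB of which 21.6% of the 50-base words occurred in other genes, was at 0, 2.25, 0.258 and 0.795 FPKM, a log2 ratio of -0.86 between the AGO precipitates.

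RAB14, which links the Golgi and endosomes, was at 2.01, 0.346, 2.61 and 1.04 FPKM, and RAB9A, which returns receptors from late endosomes, at 3.23, 0.311, 1.66 and 0.914 FPKM. Both were lowest in control_AGO. RAB32, of lysosome-related organelles, was at 1.15 FPKM in control_AGO, 0.743 FPKM in miR143_AGO and 0 in both mock precipitates, and RAB39A was at 3.22 FPKM (control_IgG) and 0.359 FPKM (miR143_IgG) and 0 in both AGO precipitates. RAB23, of the primary cilium, was highest in miR143_AGO at 1.59 FPKM, and RAB30, a Golgi RAB, in miR143_IgG at 2.13 FPKM. These rows lie near the limit of 1 FPKM, where small differences give large plain ratios, which the scale of (FPKM + 1) understates.

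By role, the medians of the log2 ratios between the AGO precipitates were close to 0 for the larger groups. Over 6 rows of early endosomes the median was 0.18, over 6 of recycling endosomes it was -0.14, over 8 of the endoplasmic reticulum and Golgi -0.16 and over 7 of exocytosis 0.42. Of the 6 recycling rows, RAB11A was the only one past 2-fold, with RAB11B at 0.41, RAB14 at 0.60, RAB35 at 0.22, RAB4A at -0.50 and RAB4B at -0.60. Of the 7 exocytosis rows 3 were at least 2-fold higher, against 17.7% of all rows, 1 of them the joined RAB3D row just past 2-fold, and none was 2-fold lower, against 14.1% of all rows.

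The mock precipitates give the background of that comparison, since they share no library with it. Of 36 RAB rows compared between miR143_IgG and control_IgG, 13 were at least 2-fold higher and 11 lower, where 36.2% and 26.8% of all rows were. The median log2 ratio was 0.23 against 0.17 over all rows, with a standard deviation across RAB rows of 2.12, against 1.28 between the AGO precipitates. Over all rows these were 1.99 and 1.12. At least 10-fold higher were 4 RAB rows (5.71% of all rows) and at least 10-fold lower was 1 (3.16% of all rows). The 10-fold lower row was RAB27A, joined with PIGBOS1, a RAB of secretory lysosomes and exosomes, at 37.5 FPKM (control_IgG) and 1.81 FPKM (miR143_IgG) against 3.13 and 4.50 FPKM in the AGO precipitates.

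The 4 rows that were 10-fold higher in miR143_IgG were RAB28, RAB11B, RAB7A and RAB5A. RAB28, a RAB of cilia, was at 3.40 (control_IgG), 0.737 (control_AGO), 327 (miR143_IgG) and 0.724 FPKM (miR143_AGO). This was the highest value of any RAB row in a mock precipitate, it was confined to 1 group, and in both AGO precipitates the row was below 1 FPKM. The row holds 1 name, and the longest coding RAB28 transcript shared no 50-base word with annotated transcripts of genes elsewhere. Other RAB28 transcripts and introns were not checked. RAB7A, which controls traffic to the late endosome and lysosome, was at 3.89 (control_IgG), 6.64 (control_AGO), 56.1 (miR143_IgG) and 10.5 FPKM (miR143_AGO). RAB5A had 10.1 FPKM in miR143_IgG and was at 0 in control_IgG. RAB11B and RAB5A were thus listed at 0 in control_IgG, so that no fold is given for them. The log2 ratio of RAB28 between the mock precipitates, 6.22, was larger in size than that of RAB11A between the AGO precipitates.

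Recovery with AGO2 was then described as AGO over IgG within each cell population. In control cells 38 RAB rows were compared, with a median log2 ratio of 0.37 against -0.19 over all rows. At least 2-fold higher with AGO2 were 16 and lower 12, where 34.5% and 36.2% of all rows were. With the groups scaled to the same median the counts were 19 and 6, and scaled to the same upper quartile they were 18 and 8. At least 10-fold higher were 2 RAB rows (4.38% of all rows), RAB5B and RAB18, the latter listed at 0 in its mock, and 1, RAB33B, was 10-fold lower (4.98% of all rows). The RAB11A row had a plain ratio of 10.1, but its log2 ratio of (FPKM + 1), 3.31, lay just under this limit.

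In miR-143 cells 39 were compared, with a median of 0.29 against -0.22 over all rows. Here 12 were at least 2-fold higher and 7 lower, where 26.6% and 33.5% of all rows were. The counts were 15 and 4 when scaled to the same upper quartile and 15 and 6 when scaled to the same median. At least 10-fold lower was 1 RAB row, RAB28, where 3.67% of all rows were. Both medians depended on low rows and were -0.35 and -0.48 over the rows whose mean reached 5 FPKM. No median over all rows is given for that filter, so these values have no background beside them.

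Of 35 rows compared in both, 6 were at least 2-fold higher with AGO2 in both (RAB5B, RAB5C, RAB18, RAB8A, RAB20 and RAB2A) and 3 at least 2-fold lower. Over the 8648 rows of all genes compared in both, 15% were 2-fold higher in both and 16.4% lower in both. The 6 higher RAB rows are thus near the background, while the 3 lower rows make up a smaller share than over all rows. These counts are small and were not tested. RAB5C, whose row joins KAT2A and another name, was at 44.4 (control_IgG), 235 (control_AGO), 35.3 (miR143_IgG) and 290 FPKM (miR143_AGO), with log2 ratios of AGO over IgG of 2.38 and 3.00. RAB5B had log2 ratios of 3.66 for control and 2.03 for miR-143 cells. RAB5A, the last paralogue, was at 0, 0.913, 10.1 and 2.89 FPKM and was lower with AGO2 than with IgG in miR-143 cells, with a log2 ratio of -1.51. RAB5B and RAB5C were thus highest in the AGO precipitates and RAB5A in a mock precipitate. The RAB8A row had log2 ratios of 2.71 and 1.33 and mock values of 2.24 and 7.25 FPKM, while RAB18, RAB20 and RAB2A were at 0 in control_IgG.

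Low recovery with AGO2 was seen for RAB33B, which acts in Golgi traffic and autophagy. It was at 12.9 (control_IgG), 0.25 (control_AGO), 3.36 (miR143_IgG) and 0.173 FPKM (miR143_AGO), log2 ratios of -3.48 and -1.89. RAB26 was lower with AGO2 in both populations, with log2 ratios of -1.19 and -1.17. RAB28 was the other row at least 2-fold lower in both, with -1.34 (control cells) and -7.57 (miR-143 cells).

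For 15 of the 35 rows the log2 ratios of AGO over IgG lay on opposite sides of 0 in the cell populations, while 13 were above 0 in both and 7 below 0 in both. Over all rows compared in both, 34.6% lay on opposite sides, 30.8% were above 0 in both and 34.6% below 0 in both. The RAB27A row was at -3.22 (control cells) and 0.97 (miR-143 cells), and RAB10 at -2.89 and 0.29. For both rows control_IgG was the highest group, with 37.5 and 23.7 FPKM. RAB35, which returns membrane to the surface by a fast route, was at 53.7, 18.7, 11.2 and 22.0 FPKM in control_IgG, control_AGO, miR143_IgG and miR143_AGO, with -1.47 and 0.92. RAB7A was at 0.64 and -2.31. RAB3A was at 0.18 and 2.54, with only 0.0802 FPKM in miR143_IgG, and RAB12, which acts in degradation of recycling receptors, was at 2.36, 2.44, 0 and 5.26 FPKM.

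By role, all 5 early endosome rows compared in control cells were above their mock, 4 of them by 2-fold or more. Of all rows 47.1% were above 0 and 34.5% by 2-fold or more. The median of the 5 log2 ratios, 2.38, was that of the RAB5C row, which is joined with other names. RAB20 was listed at 0 in its mock, so that its ratio depends on the pseudocount. In miR-143 cells 4 of 6 early endosome rows were above their mock, with a median of 0.71, where 45.7% of all rows were above 0. Of the recycling rows 4 of 6 were above their mock in control cells (median 0.80) and 1 of 6 in miR-143 cells (median -0.84). These 6 include the RAB11A row, on which the family was selected and which was above its mock only in control cells. The 7 exocytosis rows had a median of -1.19 (control cells) and 0.37 (miR-143 cells). These medians rest on few rows, share the AGO precipitates with the comparison above, and were not tested.

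**Figure D4:**
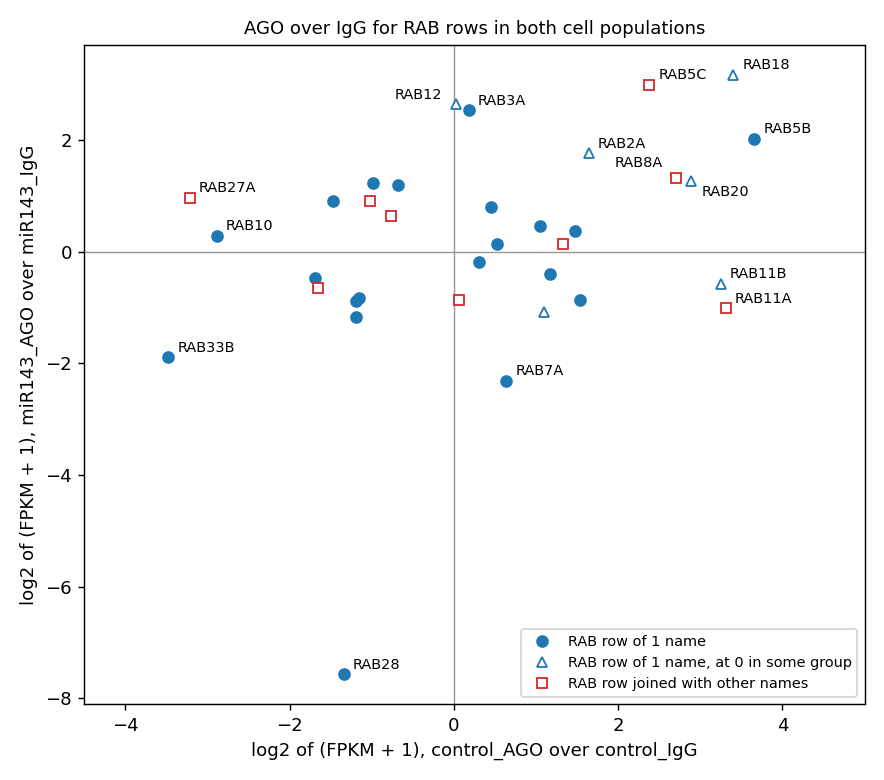
Log2 ratio of (FPKM + 1) of AGO over IgG in control cells (horizontal axis) and miR-143 cells (vertical axis) for the 35 RAB rows compared in both, with joined rows as open squares and rows at 0 in some group as open triangles, whose position depends on the pseudocount. RAB5B, RAB5C and RAB18 lie at the upper right, RAB33B at the lower left, RAB28 at the bottom (-7.57), and RAB11A at the lower right (3.31 and -1.01).

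Set beside the seed sites, the RAB rows showed no uniform direction. Between the AGO precipitates, the 10 rows compared whose gene has a miR-143-3p site had a median log2 ratio of -0.01, with 5 above 0, and the 26 without a site had 0.26, with 16 above 0. Of the 10, 3 were at least 2-fold lower in miR143_AGO (RAB11A, RAB40B and RAB43) and 1 at least 2-fold higher (RAB2A). The rows of RAB11A, RAB43, RAB27A and RAB40C are joined with other names, as are some of the 26. Their values cannot be assigned to the RAB gene alone. Without RAB11A, on which the family was selected, the 9 rows left had a median of 0.06, with 2 lower and 1 higher. Of the 26, 2 were 2-fold lower and 6 higher, where 14.1% of all rows were lower and 17.7% higher. RAB7A and RAB2B, whose sites are printed above, had log2 ratios of 0.59 and 0.83. RAB2B was at 0.418 (control_IgG), 1.93 (control_AGO), 2.78 (miR143_IgG) and 4.20 FPKM (miR143_AGO). RAB6B, a Golgi RAB with 2 sites, was at 4.03, 2.13, 0.279 and 1.93 FPKM in that order of groups, and RAB21, of early endosomes and also with 2 sites, at 0.469, 1.11, 1.01 and 1.21 FPKM. The RAB27A and RAB40C rows, with 1 site each, had log2 ratios of 0.42 and -0.12.

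In the recovery relative to the mock, rows with a site had a median of 0.52 in control cells over 11 rows and 0.30 in miR-143 cells over 12 rows, against 0.12 and 0.33 for 26 rows without a site in each.

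The genes of the RAB cycle were described from a list of 105 names, of which 104 were found in 108 rows. Between the AGO precipitates 78 rows were compared, with a median log2 ratio of -0.09 (-0.23 when scaled to the same median and 0.05 when scaled to the same upper quartile), and 7 were at least 2-fold higher and 16 lower, against 17.7% and 14.1% of all rows. With the groups scaled to the same median the counts were 7 and 20, and with the same upper quartile they were 10 and 15. At least 10-fold lower were 2 of them, against 0.745% of all rows. RIN3, an exchange factor of RAB5, was at 0 (control_IgG), 32.3 (control_AGO), 3.90 (miR143_IgG) and 1.07 FPKM (miR143_AGO), a log2 ratio of -4.01 between the AGO precipitates. The row of RAB3IP, an exchange factor of RAB8 joined here with 2 other names, was at 0, 42.0, 2.31 and 1.93 FPKM, a log2 ratio of -3.88. Like RAB11A, both had their highest value in control_AGO by a wide margin.

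Other genes of the cycle at least 2-fold lower in miR143_AGO were RBSN, an effector of RAB4 and RAB5, at 21.3 FPKM (control_AGO) and 3.51 FPKM (miR143_AGO) (log2 ratio -2.31), and RABEP1, another effector of these RABs, at 12.7 and 4.32 FPKM (-1.36). DENND4B, of a family of exchange factors of RAB10, was at 44.5 and 10.3 FPKM (-2.01), and ANKRD27, an exchange factor of RAB21, at 40.3 and 13.0 FPKM (-1.56). The RABGAP1 row, a GTPase activating protein joined with GPR21, was at 18.1 and 0.997 FPKM (-3.26). Also lower were RIC1, RGP1, TBC1D1, TBC1D4, SGSM2, RAB11FIP2 and the rows of RILPL1 and TBC1D10A, with log2 ratios from -1.84 to -1.05.

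The 7 higher rows were INPP5B, the RAB3GAP2 row, SH3BP5, RAB11FIP4, TBC1D15, RAB3GAP1 and DENND5B, with log2 ratios from 1.13 to 2.10. INPP5B, an inositol phosphatase that binds RABs, was at 0.593 and 5.82 FPKM in control_AGO and miR143_AGO, and SH3BP5, an exchange factor of RAB11, at 0.295 and 2.42 FPKM. RAB3GAP1 and RAB3GAP2 form 1 complex that acts on RAB3 and RAB18. RAB3GAP1 was at 12.4 (control_IgG), 0.425 (control_AGO), 8.92 (miR143_IgG) and 2.38 FPKM (miR143_AGO), and the RAB3GAP2 row was at 24.5, 0.616, 6.59 and 3.30 FPKM, both lowest in control_AGO. Of the effectors of RAB11, RAB11FIP1 was at 16.3, 5.31, 12.5 and 10.2 FPKM in that order of groups, the RAB11FIP5 row at 0, 37.4, 1.97 and 27.5 FPKM, and RAB11FIP2 at 0, 2.22, 0.88 and 0.163 FPKM. Of these 3 rows RAB11FIP2, at low values, was like RAB11A highest in control_AGO and lower in miR143_AGO than in miR143_IgG. RAB11FIP1 was highest in control_IgG, and the RAB11FIP5 row was above its mock in both AGO precipitates. So were RAB11FIP3, at 0, 6.05, 0 and 4.42 FPKM in that order of groups, and RAB11FIP4, at 0, 1.39, 0 and 5.17 FPKM. Another RAB11FIP3 row was at 0 in every group. Relative to the mock, the rows of the cycle had a median log2 ratio of 1.17 for control cells (78 rows) and 0.53 for miR-143 cells (76 rows).

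The rows nearest to RAB11A over all 4 groups were found by the Euclidean distance of log2(FPKM + 1) among rows of 1 name. They were EMP3 at a distance of 2.68, DCXR at 2.78, DTYMK at 2.93, TESC at 2.94 and NPLOC4 at 3.10. EMP3, which encodes a membrane protein, was at 76.0, 203, 42.9 and 33.8 FPKM in control_IgG, control_AGO, miR143_IgG and miR143_AGO. None of the 5 is a RAB gene, and even the nearest lay 2.68 log2 units away.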

How the data were processed

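The authors deposited 4 tables, 1 per group, each with 1 FPKM value per row that the header calls the average of the group, and values of the 3 samples per group were not analysed here. The submitters' processing notes name TopHat, Cufflinks and hg38, and their versions and the annotation are not given in the sources used here. As FPKM is relative to all mapped fragments, abundant RNAs can lower all other values. How far MIR143 and RNU4-2 did so was not tested. Some rows join several gene names under 1 value. Differences were computed as log2((FPKM + 1)/(FPKM + 1)) over rows that reached 1 FPKM in either group, with Python 3.11.15, pandas 2.3.3 and numpy 2.4.6, and rows were called at 2-fold and 10-fold. The ratio step was tested on simulated data. Coordinates, 3′ UTRs and 50-base words come from GENCODE 29 (GRCh38), matched by symbol, which may differ from the authors' annotation. The words were those of 1 transcript per gene, the longest coding one where there was one, sought in the sense strand of annotated transcripts.

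RAB members and gene lists were chosen with earlier results of these data known. The rule named RAB11A and RAB11B, RAB rows past 2-fold between the AGO precipitates, the 5 highest and 5 lowest ratios of AGO over IgG per population, joined rows, rows with a site, members of the RAB cycle past 2-fold and the 5 rows nearest to RAB11A. Other RAB genes were taken by role. With 1 average per group no test was possible, and a count was taken as unchanged within 1.5 times. Some items are not reported here.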

Additional observations from a re-analysis of the deposited data

Results flagged for a closer look

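For 2 RAB rows AGO over IgG was at least 2-fold higher in one cell population and at least 2-fold lower in the other. The RAB11A row, joined with AC084854.1, had a log2 ratio of 3.31 for control and -1.01 for miR-143 cells. RAB1C, a processed pseudogene, had 1.10 in control cells, where it was listed at 0 with IgG so that no fold is given, and -1.07 in miR-143 cells, and its FPKM was 0, 1.14, 1.32 and 0.106 in control_IgG, control_AGO, miR143_IgG and miR143_AGO. Of its 50-base words 15.6% occurred in another gene, RAB1B. In each case the difference between the cell populations was not tested, since there is 1 average per group.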

How the results depend on the processing

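The log2 ratio of the RAB11A row between the AGO precipitates ran from -6.12 to -5.81 over 5 alternatives (pseudocounts of 0.1 and 0.01, both scalings, and rows of equal name summed). No RAB row called at 2-fold changed its direction, while the family median between the AGO precipitates (0.07) was -0.06 scaled to the same median and the median of the RAB cycle (-0.09) was 0.05 scaled to the same upper quartile. Keeping only rows whose mean was 5 FPKM or more left 2 RAB rows 2-fold higher and 2 lower between the AGO precipitates and 6 higher and 6 lower between the mock precipitates, since fewer rows were compared. Under it the median of AGO over IgG became -0.35 in control cells, with 5 rows 2-fold higher, and -0.48 in miR-143 cells, with 3 rows higher. No values over all rows are given for this filter. Leaving out joined rows left 3 RAB rows 2-fold lower between the AGO precipitates. Scaling to the same median left 6 rows 2-fold lower with AGO2 in control cells, and scaling to the same upper quartile left 4 in miR-143 cells. Scaling to the same median and to the same upper quartile moved the median of all rows by 0.26 and 0.16 between the mock precipitates, and the ratios to the mock by 0.68 and 0.48 for control and 0.16 and 0.40 for miR-143 cells. The other 110 alternative values of these results stayed within 1.5 times. Of the values of single rows, 94 moved and 497 did not, and 88 of those that moved did so with a smaller pseudocount.

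No paired analysis was possible because the tables carry 1 average per group and no replicate numbers, and for the same reason leaving out single replicates was not run. Fragment counts were unknown, so that a 0 is no sign of absence, above all in control_IgG.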
